A study of Mus musculus with 18 samples.

Results

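The effect of homocysteic acid (HCA) on cultured mouse neurons was measured as 1 coefficient over all adaptaquin doses. It set 8 bead arrays of neurons given HCA against 9 arrays of neurons without it. Arrays were chosen by their titles, in which Y was read as HCA, N as no HCA and BQ as adaptaquin. Of the 18 arrays of the series, 17 were used. The HCA groups were HCA alone with 2 arrays, HCA with 0.1 µM adaptaquin with 3 arrays and HCA with 1 µM adaptaquin with 3 arrays. The groups without HCA were untreated neurons, neurons with 0.1 µM adaptaquin and neurons with 1 µM adaptaquin, with 3 arrays each. The remaining HCA-only array is titled as an outlier and was left out. The labels give neither the age or brain region of the neurons nor the dose and duration of HCA. Arrays of equal dose and replicate number formed 8 matched pairs, 2 at 0 µM and 3 at each of the other doses. The labels do not say that replicates were separate cultures, and p-values then reflect how these arrays differ among themselves, possibly for technical reasons alone.

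HCA is a glutamate analogue that competes with cystine for uptake into the cell, so that glutathione, the main thiol antioxidant, runs down. Amino acid shortage and oxidative stress activate the integrated stress response, in which phosphorylation of the initiation factor eIF2 lowers general translation and raises the transcription factor ATF4. ATF4 binds amino acid response elements and induces amino acid transporters, biosynthetic enzymes and tRNA synthetases. Adaptaquin inhibits the HIF prolyl hydroxylases, the oxygen-sensing enzymes that mark HIF for degradation.

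The upper quartile of probe intensity was 333 to 555 on the HCA arrays and 346 to 563 on the arrays without HCA. Between 43.6% and 47.6% of probes were detected on the HCA arrays and between 42.8% and 47.3% on the arrays without HCA. The array titled as an outlier was dimmer, with an upper quartile of 241 and 40.9% of probes detected. Of 12 neuronal markers, 10 were detected on all 17 arrays, among them Tubb3, Map2 and Rbfox3, while Snap25 and Nefl were detected on none. Markers of other cells were present too. The astrocyte and radial glia markers Slc1a3, Vim and Nes and the microglial markers Aif1 and Trem2 were detected on all 17 arrays, and P2ry12 and Tmem119 of microglia, Pecam1 and Cdh5 of vessels, and S100b and Glul of astrocytes on none.

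HCA moved many genes by little. Of 8922 genes tested, 922 rose (10.3%) and 1104 fell (12.4%) at an adjusted p under 0.05 with limma. Falls outnumbered rises among small changes and not among large ones. Changes under 0.5 on the log2 scale made up 992 of the falls and 764 of the rises, changes from 0.5 to 1 made up 105 falls and 120 rises, and changes above 1 made up 7 falls and 38 rises. The median change over all genes was -0.0045, and the smallest called change had a size of 0.102. Over all genes, 692 (7.76%) were lower and 596 (6.68%) were higher with HCA in all 8 matched pairs, and 614 of the falls and 548 of the rises were called as well.

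These calls depended on the arrays and on the replicate number in the fit. Without the replicate number as a covariate, 564 rises and 617 falls were called, all of them among the calls made with it. Without the arrays of replicate 2, 369 rises and 343 falls were called. Without those of replicate 1 the counts were 603 and 831, and without those of replicate 3 they were 605 and 694. The sizes of dim genes depended on the background correction. Of 98 called genes run under the alternatives, 38 had a change smaller by over 1.5 times without that correction, 37 in the authors' deposited values and 11 with an offset of 50, and 0 changed sign. Without the correction the change was -0.95 for Bcan, -0.73 for Pdzph1, -0.54 for Mc4r, -0.55 for Fmo1, 1.30 for Npas4, 1.06 for Bdnf and 0.76 for Slc7a11.

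Most of the small changes were not called at any single dose. At 0 µM adaptaquin 252 genes (2.82%) were called, at 0.1 µM 533 (5.97%) and at 1 µM 402 (4.51%), in a fit with the same covariate. Of the genes called over all doses, 786 falls and 580 rises were called at no single dose. The median standard error of a gene was 0.0663 over all doses, against 0.126 at 0 µM and 0.111 at each of the other doses. Of the falls under 0.2, 262 of 269 (97.4%) were called over all doses only, and of the rises of that size 214 of 224 (95.5%). From 0.3 to 0.5 the shares were 55.2% of falls and 49% of rises, and above 1 they were 0 of 7 falls and 0 of 38 rises. In the other direction, 52 of the 712 genes called at any single dose were not called over all doses.

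**Figure D1:**
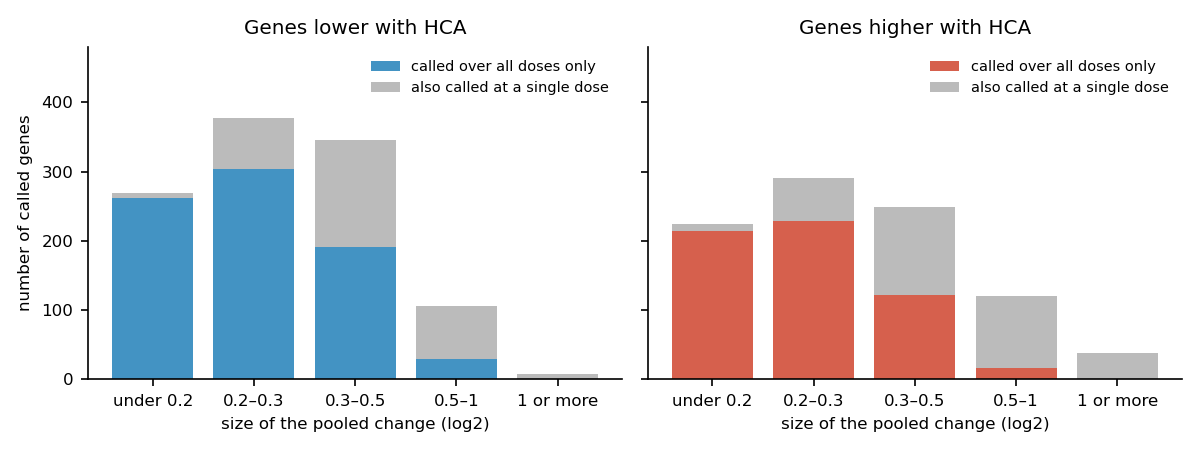
Number of called genes (vertical axis) by the size of the pooled change on the log2 scale (horizontal axis), for genes lower with HCA on the left and higher with HCA on the right. Coloured parts are genes called over all doses and at no single dose, and grey parts were also called at a single dose. Of the falls, 304 of 377 between 0.2 and 0.3 were called over all doses only, against 29 of 105 between 0.5 and 1.

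The direction of these changes was read in arrays that had not entered the fit behind the call. These arrays had entered the normalization and the probe filter. Pairs of a left-out dose also shared replicate numbers with the arrays kept, so that the reading was not independent. Falls called without the 0, 0.1 and 1 µM arrays were also negative in the pairs of the dose left out for 94.0%, 96.6% and 96.5% of genes, whereas 53.3%, 51.3% and 51.5% of all genes were negative there. For falls under 0.5 the shares were 93.3%, 96.4% and 96.1%. Rises called in the same way were positive in the pairs left out for 93.5%, 97.0% and 95.1% of genes. When the arrays of replicate 1, 2 or 3 were left out instead, the falls were negative in the left-out pairs for 87.1%, 97.4% and 93.7% of genes. Of all genes, 50.4%, 51.3% and 53.1% were negative in these pairs. The reading was least uniform in the pairs of replicate 1, where the median of those falls was -0.186, against -0.352 in the arrays that made the call. For falls under 0.5 the shares by replicate were 84.3%, 96.6% and 93.5%. Their median in the pairs of replicate 1 was -0.153, against -0.316 in the arrays that made the call.

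The largest fall with 8 of 8 pairs lower was that of Bcan. The gene, which encodes the matrix proteoglycan brevican of astrocytes and perineuronal nets, had a lowest, median and highest log2 intensity of 6.38, 6.67 and 7.18 on the HCA arrays and 7.70, 8.57 and 8.71 on the arrays without HCA. No HCA array reached the lowest array without HCA. The change was -1.61 ± 0.153 (SE), with an adjusted p of 4.4e-06. It was -1.29 at 0 µM, -1.68 at 0.1 µM and -1.80 at 1 µM adaptaquin.

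Pdzph1 had 5.68, 5.87 and 6.34 on the HCA arrays and 6.91, 7.70 and 8.07 on the arrays without HCA, again with no overlap. Its change was -1.59 ± 0.158 with an adjusted p of 6.4e-06. For both genes the pairs of replicate 1 showed the smallest difference, -0.96 for Bcan and -0.94 for Pdzph1, against -2.13 and -2.25 in the pairs of replicate 2.

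Mc4r encodes the melanocortin receptor 4, which is known for its part in energy balance. It had 5.08, 5.54 and 5.89 on the HCA arrays and 5.99, 7.18 and 7.52 on the arrays without HCA. The ranges did not overlap, and the gene was detected on 4 of 8 HCA arrays and on 9 of 9 arrays without HCA. It fell by 1.41 ± 0.189 (adjusted p = 9.9e-05). Fmo1, a flavin-containing monooxygenase, had 5.05, 6.12 and 6.37 on the HCA arrays and 6.62, 6.99 and 7.99 on the arrays without HCA. It fell by 1.25 ± 0.167 (adjusted p = 9.6e-05), also with no overlap.

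Loxl1, a lysyl oxidase that crosslinks elastin, fell by 0.84 ± 0.068, with 8.35, 8.66 and 8.95 on the HCA arrays and 9.32, 9.45 and 9.86 on the arrays without HCA. Ogn and Prelp, small leucine-rich proteoglycans, fell by 0.91 and 0.85, and the collagen gene Col16a1 fell by 0.84. Prelp was detected on 6 of 8 HCA arrays and 6 of 9 arrays without HCA, and lost its call without the replicate number (adjusted p = 0.054). Hdac1, a class I histone deacetylase, fell by 0.76 ± 0.0694, with 8.52, 8.80 and 9.0 on the HCA arrays and 9.45, 9.54 and 9.64 on the arrays without HCA, which did not overlap.

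**Figure D2:**
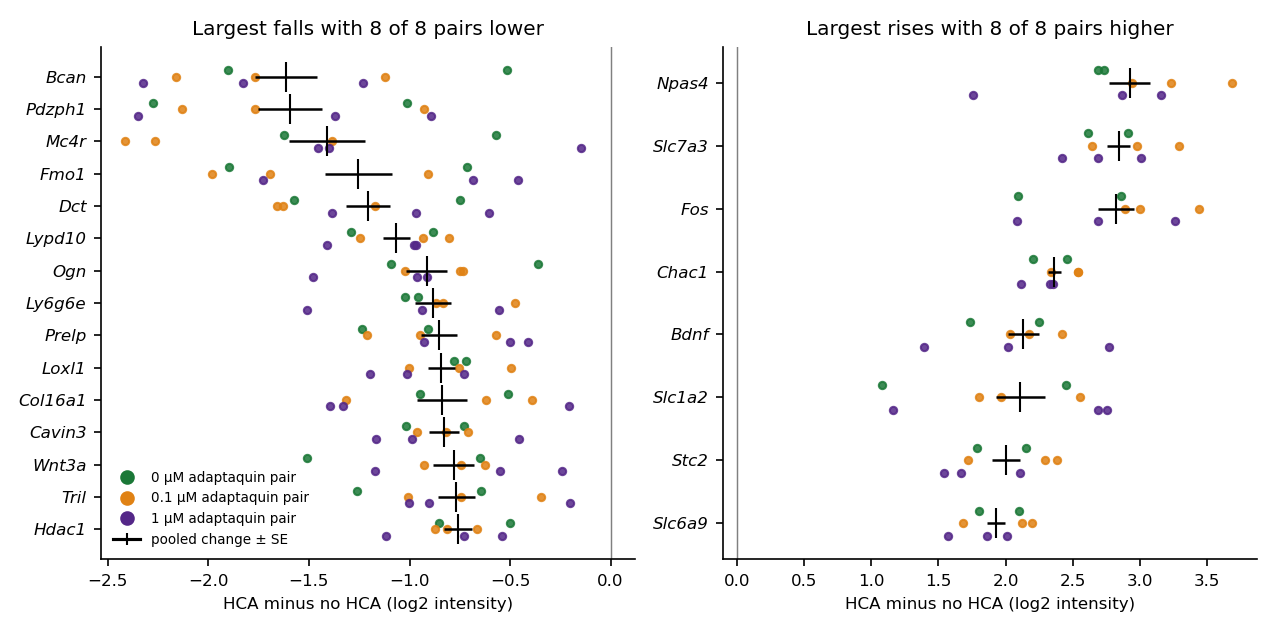
Difference in log2 intensity, HCA minus no HCA (horizontal axis), in each of the 8 matched pairs for the 15 largest falls (left) and 8 largest rises (right) whose pairs all had one sign. Points are pairs coloured by adaptaquin dose, and black bars give the pooled change ± SE. Bcan lies at -1.61 ± 0.153 and Chac1 at 2.36 ± 0.0503, and every pair lies on one side of 0 by the rule that chose the genes.

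Astrocyte and radial glia markers were lower with HCA. Of 16 tested, 10 fell (62.5%) and 1 rose, with a median change of -0.37. Nes, the intermediate filament nestin of progenitors, had 8.51, 8.84 and 9.07 on the HCA arrays and 9.23, 9.53 and 9.84 on the arrays without HCA. The ranges did not overlap, and the change was -0.75 ± 0.0584 (adjusted p = 6.2e-07). Ttyh1 and Aldh1l1 fell by 0.55 and 0.51, and the water channel gene Aqp4 fell by 0.51. Aqp4 was detected on 3 of 8 HCA arrays and 8 of 9 arrays without HCA, and lost its call without the arrays of replicate 2, of replicate 3, at 0 µM or at 0.1 µM. Sox2 and Gja1 were not called, with changes of -0.10 and 0.14. The exception was Slc1a2, the glutamate transporter GLT-1, which had 7.50, 8.28 and 8.44 on the HCA arrays and 5.54, 5.99 and 6.46 on the arrays without HCA and rose by 2.11 ± 0.186. It was detected on 8 of 8 HCA arrays and 6 of 9 arrays without HCA. Its change lay between 1.06 and 2.54 over the alternatives, so that the size of its rise is uncertain. Without the arrays of replicate 2, 5 members of the list fell, and without those at 0.1 µM the count was 6.

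The summed intensity of the list was 13912 to 17216 on the HCA arrays, with a median of 15936, and 16886 to 23231 on the arrays without HCA, with a median of 18478. It was lower with HCA in 8 of 8 pairs. Gfap, a defining astrocyte marker counted among the falls, was detected on 1 of 8 HCA arrays and 2 of 9 arrays without HCA. It lost its call in 8 of 35 alternatives. In RNA of whole cultures, fewer cells of a type and less RNA per cell cannot be told apart.

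Members of the Notch, Wnt, Hedgehog and BMP pathways, which act in neural progenitors and glia, were lower with HCA. Of 36 tested, 15 fell (41.7%) and 0 rose with limma, with a median of -0.14, and 1 was higher at an unadjusted p under 0.05. Hes5, a repressor induced by Notch, had 7.93, 8.14 and 8.45 on the HCA arrays and 8.56, 8.75 and 9.11 on the arrays without HCA. The ranges did not overlap, and the change was -0.54 ± 0.0532 (adjusted p = 6.1e-06), with -0.52, -0.54 and -0.56 at 0, 0.1 and 1 µM. The Notch targets Nrarp and Hes1 fell by 0.53 ± 0.0478 and 0.47 ± 0.0623, and the Wnt pathway repressor Tcf7l1 fell by 0.60 ± 0.0494. Dkk3 and Smad6, which were not called, had changes of -0.16 and -0.17. The count was 11 without the replicate number and 8 without the arrays of replicate 2 or without those at 0.1 µM.

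Markers of dividing cells were lower by smaller amounts. Of 27 tested, 17 fell (63.0%) and 0 rose, 25 had a negative change, and the median was -0.20. Cdc20, an activator of the anaphase-promoting complex, had 10.71, 11.11 and 11.30 on the HCA arrays and 11.18, 11.47 and 11.71 on the arrays without HCA. The ranges overlapped, yet all 8 pairs were lower, and the change was -0.41 ± 0.0424 (adjusted p = 1.1e-05). Tyms, which makes thymidylate for DNA synthesis, fell by 0.43 ± 0.0628 with no overlap, and the mitotic kinesin gene Kif11 fell by 0.34 ± 0.0691, a call lost without the arrays at 0.1 µM. Uhrf1 and Mcm7 were not called, with changes of -0.21 and -0.22.

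The number of these falls was sensitive to the setting. It was 6 without the replicate number, 5 with median scaling, 5 without the arrays of replicate 2, 11 without those of replicate 1, 4 without those at 0.1 µM and 10 without those at 0 µM. The summed intensity of the markers was 32424 to 42637 on the HCA arrays and 35312 to 52595 on the arrays without HCA, and it was lower with HCA in 8 of 8 pairs. The lowest sum among the arrays without HCA was that of 1 µM adaptaquin, replicate 1, and without this array 17 members fell as before.

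**Figure D3:**
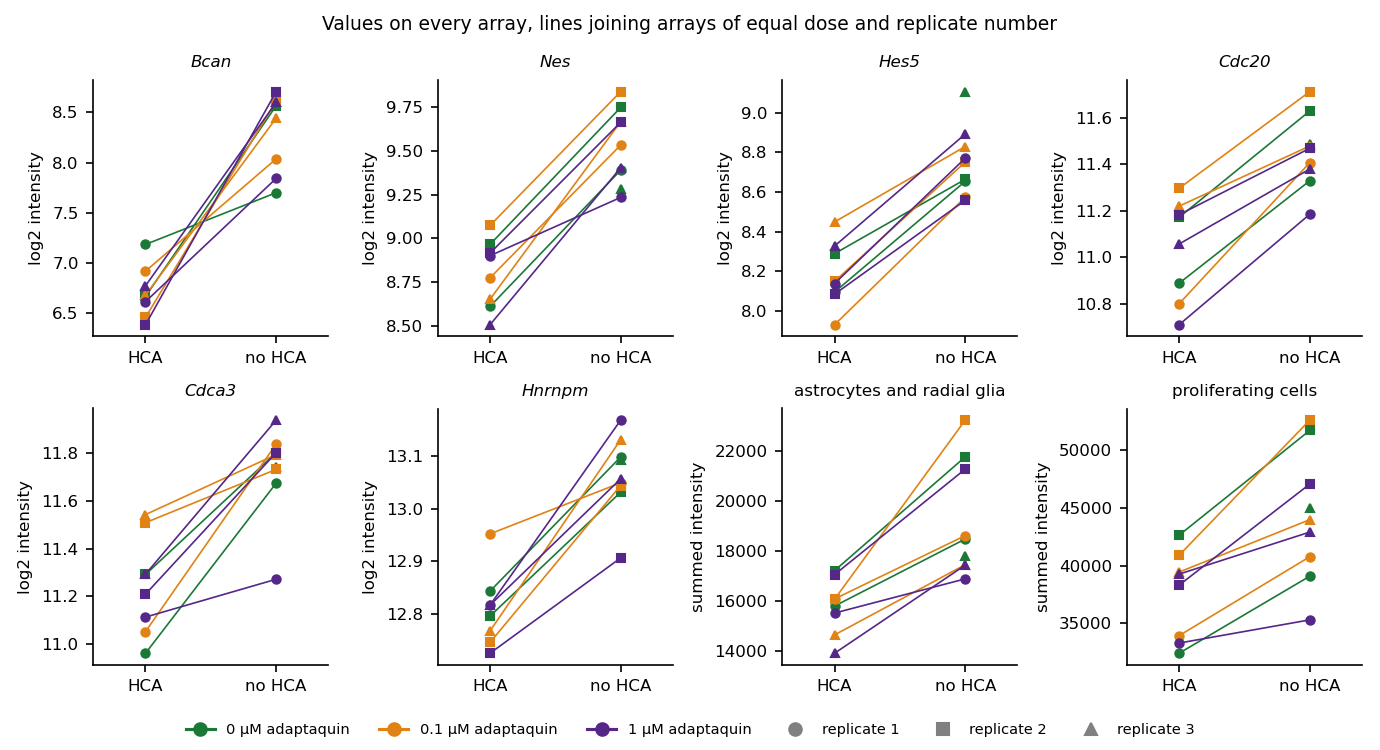
Log2 intensity of 6 falling genes and the summed intensity of 2 marker lists (vertical axes) on the HCA arrays (left in each panel) and the arrays without HCA (right). Lines join arrays of equal dose and replicate number, colour gives the adaptaquin dose and shape the replicate. All lines run lower on the HCA side, Bcan, Nes and Hes5 without overlap, and the astrocyte and proliferating-cell sums are lower in 8 of 8 pairs.

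Core histone genes, most of which are transcribed in S phase, fell in part. Of 34 tested, 9 fell (26.5%) and 2 rose (5.88%), against 12.4% and 10.3% of all genes, and 31 had a negative change, with a median of -0.11. H2ac7 had 11.94, 12.14 and 12.65 on the HCA arrays and 12.24, 12.81 and 12.94 on the arrays without HCA and fell by 0.54 ± 0.0836. H2ac15 and H2ac12 fell by 0.55 and 0.54, whereas H2ac18 rose by 0.52 and H4c8 by 0.34, calls that both lost without the arrays at 0.1 µM. These genes are near-identical copies whose probes may share targets, so that single members are uncertain. The array of 1 µM adaptaquin, replicate 1, was the lowest of the arrays without HCA for all 3 of the steepest falls, and without it 10 members fell. Without the arrays of replicate 1, or without those of replicate 2, 6 members fell. Beside these genes and the Notch pathway genes, the sums of the proliferating-cell and astrocyte markers were lower with HCA in 8 of 8 pairs, and their part in the result was not tested.

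Of 37 extracellular matrix genes tested, 8 fell (21.6%), against 12.4% of all genes tested. Another 4 rose (10.8%), a share near the 10.3% of all genes. Besides Bcan and Loxl1, Fbln1, which encodes the matrix glycoprotein fibulin-1, fell by 0.55 ± 0.0485 with no overlap. Spock3, a secreted testican proteoglycan, rose by 0.93 ± 0.086 with 8.76, 9.26 and 9.69 on the HCA arrays and 7.73, 8.33 and 8.75 on the arrays without HCA, and Reln, the guidance protein reelin, rose by 0.29 ± 0.0617, a call lost without the arrays of replicate 2. Without the replicate number 3 members fell, with it as a random block 5, without the arrays of replicate 2 or those at 1 µM 4, and without those of replicate 3 or those at 0.1 µM 5. Without background correction the count was 12, and without the arrays of replicate 2 there were 2 rises.

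Oligodendrocyte lineage markers gave 3 falls (42.9%) and 1 rise (14.3%) of 7 tested, against 12.4% and 10.3% of all genes. Olig1, a transcription factor of the lineage, fell by 0.57 ± 0.0461 with similar values at each dose, -0.62, -0.55 and -0.56. Its partner Olig2 was not detected on any array. The falls of Cnp and Bcas1 were lost under several alternatives, and 1 fall was left without the 1 µM adaptaquin array of replicate 2, without the HCA-only array of replicate 2, without all arrays of replicate 2 or 3, or without those at 0 or 0.1 µM. The rise was that of Mbp, with mean differences of 0.19, 0.13 and 0.16 in the pairs of replicates 1, 2 and 3. This rise was lost without the replicate number, with median scaling, and without the arrays of any 1 dose or replicate number. The summed intensity was 1735 to 2322 on the HCA arrays and 2162 to 3183 on the arrays without HCA and was lower in 8 of 8 pairs.

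Of 10 neuronal markers tested, 4 rose (40%) and 0 fell with limma, against 10.3% and 12.4% of all genes, and 1 was lower at an unadjusted p under 0.05. Negative changes were seen for 4 of the 10. Rbfox3, which was not called, had mean differences of -0.088, -0.049 and -0.32 in the pairs of replicates 1, 2 and 3. The summed intensity was 40105 to 44984 on the HCA arrays and 36815 to 44693 on the arrays without HCA, lower with HCA in 3 of 8 pairs. Thy1, a surface glycoprotein of neurons, rose by 0.60 ± 0.0948. Gap43, a growth cone protein, rose by 0.19 ± 0.0631, a call lost in 25 of 36 alternatives. The rises numbered 1 without the arrays of replicate 2, of replicate 3, at 0.1 µM or at 1 µM. They numbered 2 without those of replicate 1 or at 0 µM, without the replicate number or with it as a random block, with median scaling, and without any 1 of the replicate 2 arrays of 0.1 µM adaptaquin, HCA alone or HCA with 0.1 µM adaptaquin. Without background correction, and without the 1 µM adaptaquin array of replicate 1 or that of HCA with 1 µM adaptaquin, replicate 2, there was 1 fall. Of 9 microglial markers, 0 were called with limma, and 2 were higher at an unadjusted p under 0.05. In 6 alternatives that left out or weighted arrays, 1 of them rose.

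Small consistent changes were defined as called changes under 0.5 with 8 of 8 pairs of one sign and no call at any single dose. There were 327 falls (3.67%) and 258 rises (2.89%), 585 in all. Because the same contrast chose them, their sizes only describe the set. Their medians were -0.23 for falls and 0.22 for rises. The genes just inside the limit of 0.5 were Fabp7 at -0.497, Grp at -0.496 and Fnbp1 at -0.493, and those just outside it were Chek2 at -0.509, H2-Bl at 0.511 and Slitrk4 at 0.515, H2-Bl being detected on 0 of 9 arrays without HCA. A gene list held 31 of the falls and 26 of the rises. The share of all genes tested that a list held was not counted, so that these counts say nothing about enrichment. Without the replicate number 168 of the 327 falls were called, and with median scaling 144 falls and 185 rises met the definition.

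Cdca3, a trigger of mitotic entry through Wee1 degradation, was among the 12 small falls with the smallest adjusted p. It had 10.96, 11.25 and 11.54 on the HCA arrays and 11.27, 11.79 and 11.94 on the arrays without HCA. The ranges overlapped only through the array of 1 µM adaptaquin, replicate 1, which was the lowest without HCA. The change was -0.47 ± 0.0695 (adjusted p = 2.1e-04), with -0.56, -0.42 and -0.47 at the 3 doses.

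Prc1, which bundles microtubules at the spindle midzone, fell by 0.26 ± 0.0421, Haus8 of the augmin complex by 0.27 ± 0.0435, and Tubg2, a gamma-tubulin, by 0.23 ± 0.037. The histone gene H4c9 fell by 0.48 ± 0.0769. Prc1 lost its call with median scaling and without the arrays of replicate 2, and Tubg2 with median scaling.

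Hnrnpm, a splicing factor, had 12.73, 12.81 and 12.95 on the HCA arrays and 12.91, 13.06 and 13.17 on the arrays without HCA. The ranges overlapped, and the change was -0.25 ± 0.0383 (adjusted p = 2.8e-04), with -0.25, -0.25 and -0.26 at the 3 doses. Cd3eap, a subunit of RNA polymerase I, had 8.82, 8.86 and 9.16 on the HCA arrays and 9.09, 9.29 and 9.50 on the arrays without HCA and fell by 0.36 ± 0.0542. Parva, which encodes the focal adhesion protein alpha-parvin, fell by 0.48 ± 0.076, with 8.40, 8.58 and 8.79 on the HCA arrays and 8.72, 9.17 and 9.44 on the arrays without HCA. Rpain, Scamp2, Rhbdf1 and Smim19 completed the leading 12. Scamp2 and Smim19 lost their calls without the arrays of replicate 2, and Scamp2 with median scaling too, while Rhbdf1 was the member of the 12 whose ranges did not overlap.

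The leading small rises were led by Dusp1, a phosphatase that switches off MAP kinases. It had 11.98, 12.12 and 12.35 on the HCA arrays and 11.76, 11.80 and 11.84 on the arrays without HCA. The ranges did not overlap, and the change was 0.36 ± 0.0547 (adjusted p = 2.7e-04). Aak1, a kinase of clathrin coats, had 10.29, 10.47 and 10.57 on the HCA arrays and 10.04, 10.13 and 10.38 on the arrays without HCA and rose by 0.28 ± 0.0448. Rhbdl1, a rhomboid protease, rose by 0.31 ± 0.0505, with 7.90, 8.05 and 8.39 on the HCA arrays and 7.60, 7.80 and 7.94 on the arrays without HCA. Cnpy2 rose by 0.28 ± 0.0464, with 10.82, 11.14 and 11.45 on the HCA arrays and 10.50, 10.88 and 11.17 on the arrays without HCA. Cnpy2 lost its call without the replicate number.

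**Figure D4:**
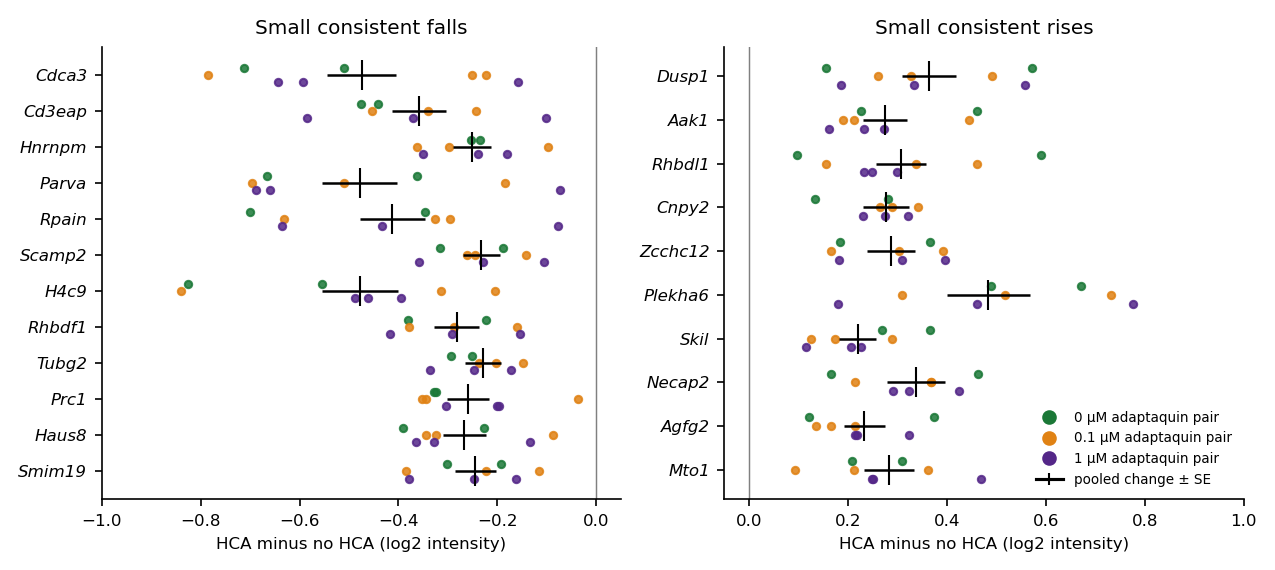
Difference in log2 intensity, HCA minus no HCA (horizontal axis), in each of the 8 matched pairs for the 12 small consistent falls (left) and 10 small consistent rises (right) with the smallest adjusted p. Points are pairs coloured by adaptaquin dose, and black bars give the pooled change ± SE. All points lie on one side of 0 by definition, and the pooled changes lie between -0.48 and -0.23 for falls and between 0.22 and 0.48 for rises.

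The 4 largest rises with 8 of 8 pairs higher were those of Npas4, Slc7a3, Fos and Chac1. Npas4, a transcription factor induced by activity, had 7.35, 8.09 and 8.71 on the HCA arrays and 4.87, 5.18 and 5.60 on the arrays without HCA and rose by 2.92 ± 0.15. It was detected on 8 of 8 HCA arrays and 2 of 9 arrays without HCA, so that the size of its rise is uncertain. Slc7a3, a cationic amino acid transporter, had 10.92, 11.66 and 11.99 on the HCA arrays and 8.08, 8.68 and 9.38 on the arrays without HCA and rose by 2.84 ± 0.085. Neither gene's ranges overlapped. Fos had 9.40, 9.92 and 10.31 on the HCA arrays and 6.54, 7.06 and 7.32 on the arrays without HCA and rose by 2.82 ± 0.134. Chac1, which degrades glutathione, had 12.10, 12.54 and 12.77 on the HCA arrays and 9.75, 10.22 and 10.46 on the arrays without HCA. Its change of 2.36 ± 0.0503 had the smallest adjusted p of all genes tested, 2.9e-13.

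The list of ATF4 and CHOP targets rose almost whole, with 32 of 33 members up (97.0%) and 0 down and a median of 1.03. Atf4 itself rose by 1.21 ± 0.102. The CHOP gene Ddit3 rose by 0.63 ± 0.0741. Slc7a11, the cystine and glutamate antiporter that HCA competes for, rose by 1.74 ± 0.093 and was detected on 8 of 8 HCA arrays and 6 of 9 arrays without HCA. The member not called was Cebpg at 0.33, detected on 4 of 8 HCA arrays and 0 of 9 arrays without HCA. Atf3 was not above background on any array without HCA and was at least 1.39-fold higher on the HCA arrays.

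Cytosolic aminoacyl-tRNA synthetases, which charge tRNAs and include known ATF4 targets, gave 12 rises (66.7%) and 1 fall (5.56%) of 18 tested. The shares of all genes were 10.3% and 12.4%, and the median of the list was 0.47. Cars, detected on 8 of 8 HCA arrays and 1 of 9 arrays without HCA, rose by 0.96 ± 0.118, Mars1 by 0.85 ± 0.05, Nars by 0.84 ± 0.0504 and Aars by 0.77 ± 0.0435. Qars went the other way. It had 11.01, 11.10 and 11.24 on the HCA arrays and 11.25, 11.33 and 11.54 on the arrays without HCA and fell by 0.25 ± 0.034 (adjusted p = 1.3e-04), with no overlap.

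The core of the amino acid response element, TGATGNAAN, was searched on both strands of the RefSeq promoters of GRCm38.p6, 250 bases before to 50 after the start site, which 7280 of the 8922 genes had. It lay in 10 of 28 promoters of ATF4 and CHOP targets (35.7%) and 5 of 12 of cytosolic synthetases (41.7%), against 2.83% of all. All 10 and all 5 carriers rose, as did 17 of the 18 ATF4 list members and 3 of the 7 synthetases with no match. Among all calls the core lay in 18.7% of rises of 0.5 or more (23 of 123) and 0 of 88 falls of that size, and among the small consistent genes in 2.84% of rises and 1.16% of falls. The windows below show the core, in capitals, with 12 bases to each side, in 5 genes that rose. They lie at chr2:119351036-119351068 (minus strand) for Chac1, chr3:50443659-50443691 (minus) for Slc7a11, chr6:7693212-7693244 (minus) for Asns, chr7:126625561-126625593 (plus) for Nupr1 and chr4:129189894-129189926 (plus) for Yars.
Chac1: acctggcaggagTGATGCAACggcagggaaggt
Slc7a11: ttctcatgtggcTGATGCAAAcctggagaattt
Asns: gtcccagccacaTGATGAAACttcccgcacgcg
Nupr1: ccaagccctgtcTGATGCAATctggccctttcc
Yars: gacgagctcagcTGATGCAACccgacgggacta

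For the falls, the E2F site TTTGGCGC, a motif of genes expressed in S phase, was searched in the same promoters. It lay in 1.03% of all, 1.32% of called falls and 2.32% of small consistent falls (6 of 259), and in 3 of 24 proliferating-cell markers (12.5%). Of those 3 markers, 1 fell, against 14 of the 21 with no match. That marker was Mcm5, a subunit of the replicative helicase, named here after its value was seen, with a change of -0.19 and a call lost in 9 of 36 alternatives. Its window, with the site in capitals, lies at chr8:75109348-75109379 (minus strand).
Mcm5: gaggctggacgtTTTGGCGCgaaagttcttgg

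Immediate early genes, the first to respond to calcium and stress signals, gave 13 rises (61.9%) and 0 falls of 21 with a median of 0.36. The shares of all genes were 10.3% and 12.4%. Bdnf, a neurotrophin induced by activity, rose by 2.13 ± 0.115 and was detected on 8 of 8 HCA arrays and 6 of 9 arrays without HCA. MAP kinase feedback genes gave 6 rises (40%) and 0 falls of 15, led by Dusp4 at 0.75 ± 0.106. Their median was only 0.015, with 9 positive and 6 negative changes. Without the arrays of replicate 2 the immediate early rises were 9 and the feedback rises 3, and without those of replicate 3 there were 2 immediate early falls. Without the array of HCA with 0.1 µM adaptaquin, replicate 2, there was 1 such fall.

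Cholesterol synthesis genes were positive throughout by small amounts. Of 17 tested, 13 rose (76.5%), 0 fell and 17 had a positive change, with a median of 0.27. Msmo1, a methylsterol oxidase, had 11.42, 11.71 and 11.95 on the HCA arrays and 10.96, 11.20 and 11.41 on the arrays without HCA and rose by 0.50 ± 0.0657 with no overlap. Mvd rose by 0.38 ± 0.071 in 8 of 8 pairs, a call lost without the arrays at 1 µM. Insig1 rose by 0.69 ± 0.182, a call it lost without the arrays of replicate 2, of replicate 3, at 0 µM or at 1 µM, and with the titled outlier included. The count was 7 without the replicate number or the arrays at 0 µM, 3 without the arrays of replicate 2 and 5 without those of replicate 3, at 0.1 µM or at 1 µM. It was 8 with median scaling and without either the 1 µM adaptaquin array of replicate 2 or the array of HCA with 1 µM adaptaquin, replicate 3.

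Voltage-gated ion channel genes gave 11 rises (26.8%) and 3 falls (7.32%) of 41, against 10.3% and 12.4% of all genes. Glutamate and GABA receptor genes gave 4 rises (30.8%) and 0 falls of 13. Gria3, an AMPA receptor subunit, rose by 0.70 ± 0.0727 and Gabrb1, a GABA-A receptor subunit, by 0.62 ± 0.0893. Scn1a, a sodium channel gene, rose by 0.62 ± 0.122, a call lost without the arrays at 1 µM or those of replicate 2. Without the arrays of replicate 2 the channel rises were 1, the channel falls 0 and the receptor rises 2, and without the replicate number the rises were 6 and 2. The channel rises were 2 without the arrays at 1 µM, 3 without those at 0.1 µM, 4 without those of replicate 1 and 6 with median scaling. Without the array of HCA with 1 µM adaptaquin, replicate 2, the channel rises were 6, and without the 1 µM adaptaquin array of replicate 2 they were 7.

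HIF targets, which stabilised HIF is known to activate, moved in both directions with 6 rises (20.7%) and 5 falls (17.2%) of 29. Of all genes tested, 10.3% rose and 12.4% fell. Vegfa, the vascular growth factor, rose by 1.19 ± 0.0607 and is a member of the ATF4 list too. Egln3, which encodes the prolyl hydroxylase PHD3 and is itself a HIF target, had 7.07, 7.25 and 7.55 on the HCA arrays and 7.56, 7.88 and 8.05 on the arrays without HCA and fell by 0.60 ± 0.0778. Ndrg1 fell by 0.46 ± 0.0447. The rises numbered 3 with median scaling, without the arrays of any 1 dose or replicate number, and without any 1 of 7 single arrays. These were the HCA-only arrays of replicates 1 and 2, the untreated array of replicate 2, the 0.1 µM adaptaquin array of replicate 1, the 1 µM adaptaquin array of replicate 2, and the replicate 3 arrays of HCA with 0.1 and 1 µM adaptaquin. The falls numbered 3 without the replicate number, with median scaling or without the arrays of replicate 2, and 2 without those at 0.1 µM.

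NRF2 targets, the antioxidant genes, gave 2 rises (9.52%) and 4 falls (19%) of 21, against 10.3% and 12.4% of all genes. Slc7a11, a member of the ATF4 list too, was among the rises. Hmox1, the inducible heme oxygenase, rose by 1.11 ± 0.125. Nqo1, a quinone reductase, fell by 0.68 ± 0.103 and was detected on 3 of 8 HCA arrays and 9 of 9 arrays without HCA. The falls numbered 1 without the arrays of replicate 2 and 2 with median scaling or without the arrays at 1 µM. Of the metallothioneins, which bind zinc, Mt3 fell by 0.69 ± 0.0826 with no overlap and Mt1 by 0.46 ± 0.0451, while Mt2 was not called, with a change of -0.25 and 5 of 8 pairs lower.

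The shares of 4 housekeeping lists lay at or below those of all genes tested. Respiratory chain genes gave 3 rises and 0 falls of 56, cytosolic ribosomal proteins 1 and 2 of 53, proteasome genes 0 and 1 of 38, and mitochondrial ribosomal proteins 4 and 6 of 69. At an unadjusted p under 0.05 with limma, 11 respiratory chain genes were higher and 3 lower, and 0 proteasome genes were higher and 3 lower. Without background correction 7 respiratory chain genes rose, and without the untreated array of replicate 1 the count was 6.

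**Figure D5:**
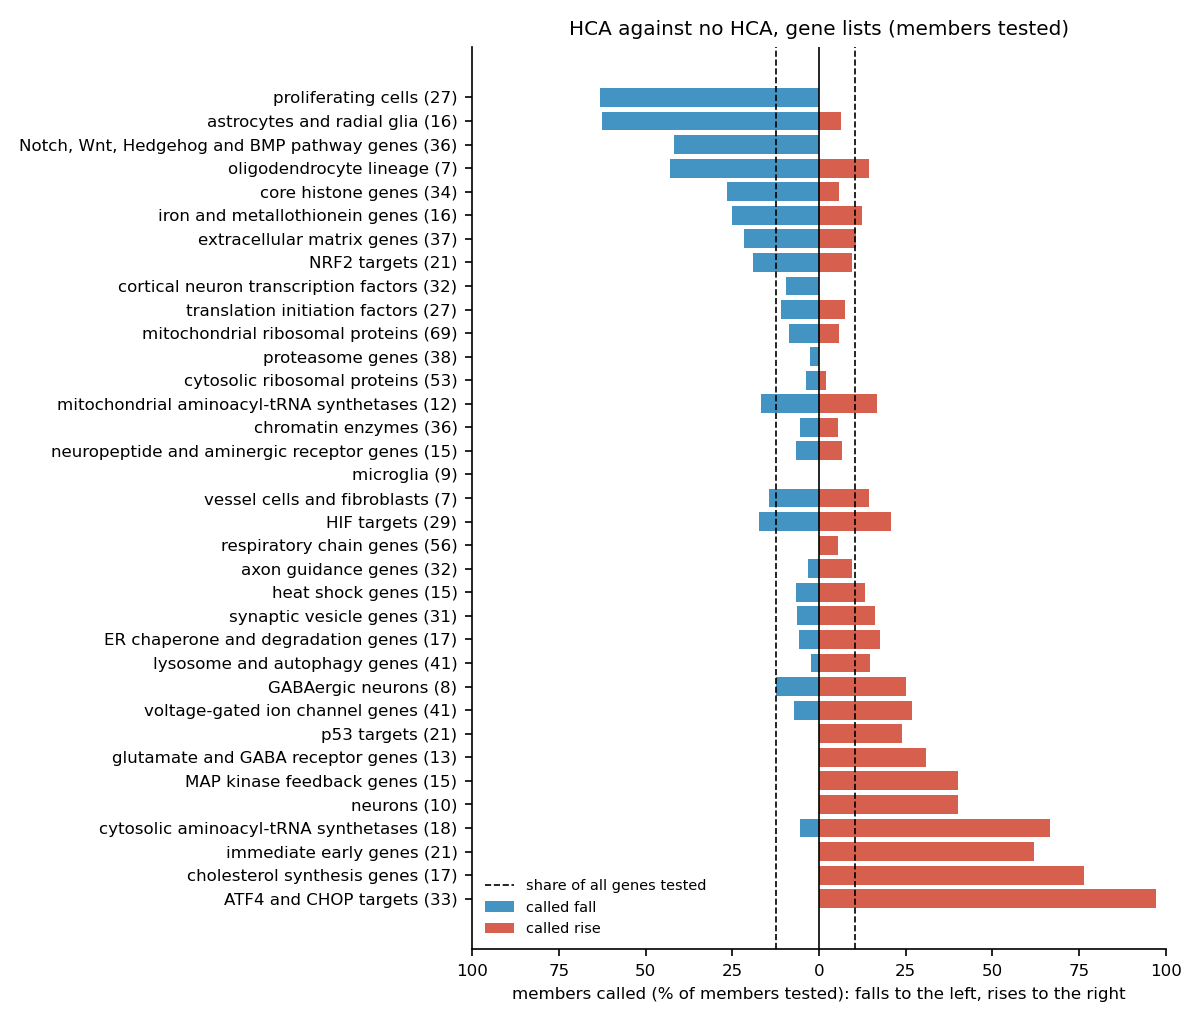
Share of the tested members of each gene list that fell (left of 0) or rose (right of 0) with HCA, with the number tested in brackets. Dashed lines mark the share of all genes tested that fell (12.4%) or rose (10.3%). Proliferating cells (63.0%) and astrocytes and radial glia (62.5%) have the highest share of falls and ATF4 and CHOP targets (97.0%) the highest share of rises.

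A single HCA coefficient could hide effects that differ between doses, so that the interaction of HCA with dose was tested. It was called for 1 gene of 8922 (0.0112%), Cdkn1a, with an adjusted p of 0.0131, and 319 genes had an unadjusted p under 0.05. Cdkn1a encodes the cell cycle inhibitor p21. With HCA it had 9.79 and 9.71 at 0 µM, 9.95, 9.88 and 9.51 at 0.1 µM, and 10.41, 10.48 and 9.99 at 1 µM. Without HCA it had 9.30, 9.10 and 8.72 at 0 µM, 9.18, 9.07 and 8.86 at 0.1 µM, and 10.75, 10.75 and 10.17 at 1 µM. HCA arrays were above their pairs at 0 and 0.1 µM and below them at 1 µM, where the effect of HCA was -0.27, against 0.57 at 0 µM and 0.75 at 0.1 µM. Over all doses the gene was not called (0.33 ± 0.127, adjusted p = 0.078).

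Sesn2, which encodes the stress sensor sestrin 2, came next with an interaction adjusted p of 0.345. Its effect was 1.91, 1.74 and 0.70 at 0, 0.1 and 1 µM. Cldn9 had 0.345 as well, Ccdc68 0.648, and Hyal1 and Pth1r 0.844. Without the replicate number 0 genes were called for interaction with limma, 132 had an unadjusted p under 0.05, and the smallest adjusted p was 0.672.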

How the data were processed

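RNA of 18 samples was measured on Illumina bead arrays. In the authors' deposited table each probe has an intensity, not normalized between arrays, and a detection p-value on every array. They also deposited a table of log2 values for 17 arrays, which equalled a quantile normalization of those intensities to within 5e-09. The scanner software is not given in the sources used here. Per the labels' protocols, RNA was extracted with Trizol, cleaned with DNase I treatment and labelled as biotinylated cRNA.

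Intensities were corrected for background, offset by 16, quantile-normalized over 18 arrays and put on the log2 scale with neqc of limma 3.58.1 in R 4.3.3. A probe was kept where its detection p-value lay under 0.01 on 2 or more of the 17 arrays, and the brightest probe stood for each of 8922 genes, 2386 of which had more than 1 probe. Of 25697 probes, 23978 had 1 gene symbol, 0 had several and 1719 had none, by a table of the platform's annotation. The linear model had 1 coefficient for HCA, with dose and replicate number as covariates, 11 residual and 3.46 prior degrees of freedom. A model of the 6 groups with the replicate number gave the single-dose effects and the interaction. All tests were two-sided, with Benjamini-Hochberg adjustment over all genes and a threshold of 0.05. The number of arrays limits the precision.

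The replicate numbers come from the labels. They paired the arrays, since residuals of the 8 matched pairs correlated at 0.29 to 0.584, whereas arrays of other numbers and groups lay between -0.461 and 0.0614. Columns of the table all differed, and no array was counted more than once.

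Genes were named by rule. Named were the 15 largest falls and 8 largest rises with all 8 pairs of one sign, the 12 falls and 10 rises of the small consistent set with the smallest adjusted p, up to 4 called members per direction and 2 uncalled members of each gene list, 6 genes of the interaction, 17 genes of the stress, iron, progenitor and cell cycle responses, and defining cell markers. The texts give those that matter most and count the rest, and the provisional symbols were not named. The members of the comparison, the gene lists and these rules were chosen with earlier results of these data known. Where no array of a group measured a gene above background, the size of its change is uncertain. For Atf3 only a bound ("at least N-fold") is printed. It runs from the HCA arrays' mean to the higher of the dimmest detected level and the gene's own value. For Cebpg and H2-Bl the fitted log2 change is printed beside their lack of detection without HCA. Promoter sequences are from RefSeq and miRNAs were not used. The alternatives tried changed the background correction, scaling, offset, probe filter, probe choice, covariate, array weights and the arrays used. Probe choice was changed by fitting every named probe, for the total counts only. Genes and lists with more than 1 probe were not compared between their probes. The readings of left-out pairs and the counts without 1 array were added after seeing the data. The model was tested on simulated data.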

Additional observations from a re-analysis of the deposited data

Results flagged for a closer look

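Single arrays lay far from the rest of their set, by Dixon's test at the 95% level, for 9 of 200 sets of arrays of the named genes, and chance alone gives about 1 in 20. The array of 1 µM adaptaquin without HCA, replicate 1, was the lowest of 9 arrays without HCA for Cdca3 (11.27, the next being 11.67), Kif11 (8.18, next 8.479), H2ac7 (12.24, next 12.69), H2ac12 (11.9, next 12.56) and H2ac15 (12.13, next 12.66). The summed intensity of the proliferating-cell markers was lowest on it as well. Without it the falls of all 5 genes were called as before.

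Among the 8 HCA arrays, that of 0.1 µM adaptaquin, replicate 3, was lowest for Fmo1 (5.05, next 5.758), and that of 1 µM adaptaquin, replicate 3, was lowest for H4c9 (8.122, next 8.454) and Ccdc68 (4.818, next 5.393). The array of 1 µM adaptaquin without HCA, replicate 3, was lowest for Cars (4.578, next 5.23).

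The HCA effect on Cdkn1a differed between adaptaquin doses in the test of interaction (adjusted p = 0.0131), as it was below 0 at 1 µM and above 0 at the other doses.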

How the results depend on the processing

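The counts changed with the replicate number, the scaling and the arrays used. Without the replicate number as a covariate (the replicate block) 564 rises, 617 falls and 0 interaction genes were called, and with it as a random block (correlation 0.31) 868 rises and 1021 falls. Median scaling gave 554 rises, 595 falls and 329 small consistent genes, 144 of them falls. With 1 µM left out there were 467 rises, 578 falls and 161 small consistent rises, with 0.1 µM left out 461 rises and 534 falls, and with 0 µM left out 614 rises and 655 falls, from fewer arrays. Leaving out 1 array, or all arrays of 1 replicate number, gave 369 to 891 rises, 343 to 1126 falls and 476 to 917 small consistent genes (255 to 564 falls and 221 to 359 rises), and the extremes came from leaving out a replicate number except for the highest counts of rises and falls. Including the array titled as an outlier gave 171 small consistent rises, and with array weights too 248 small consistent genes, 134 falls and 114 rises. Asking for 7 of 8 pairs gave 1189 (669 falls and 520 rises), and single-dose calls without the number gave 496 small falls. The authors' table gave 1022 rises and 1224 falls. The share of rises among all calls was 42.1% to 51.8% over the alternatives, against 45.5%. The cause of these shifts was not tested beyond the number of arrays. Of 111 genes run under the alternatives other than the fit of every named probe, 75 kept their sign and call in all of them. The sign turned for 3 that were called in neither fit, Ccdc68 (-0.0057 with the titled outlier and -0.20 without 0.1 µM), Cldn9 (-0.20 without 0.1 µM) and Hyal1 (-0.0932 without 0.1 µM).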

Other observations

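Genes of the p53 response, which halts the cell cycle after damage, gave 5 rises (23.8%) and 0 falls of 21 tested with limma. Of all genes tested, 10.3% rose and 12.4% fell. At an unadjusted p under 0.05, 1 member of the list was lower. Sesn2, which is on the ATF4 list too, was among the rises. The median change of the list was 0.23 at 0 µM, 0.24 at 0.1 µM and -0.059 at 1 µM. Plk3, a stress-activated kinase, had 9.19, 9.39 and 9.58 on the HCA arrays and 8.64, 8.91 and 9.01 on the arrays without HCA (lowest, median and highest log2 intensity) and rose by 0.50 ± 0.0597 with no overlap. Gadd45a rose by 0.45 ± 0.0584. Lysosome and autophagy genes gave 6 rises (14.6%) and 1 fall (2.44%) of 41, led by the sialidase gene Neu1 at 0.31. Without the arrays of replicate 1, or without those at 0 or 0.1 µM, there were 3 rises of p53 targets, and without those at 1 µM there were 7. The lysosome rises were 1 without the arrays of replicate 2 or those at 0.1 µM, 2 without those at 0 µM and 3 without those of replicate 1 or at 1 µM.

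Translation initiation factors gave 2 rises (7.41%) and 3 falls (11.1%) of 27 tested, below the 10.3% and 12.4% of all genes. Their median was -0.019, and 16 had a negative change. Among the rises was Eif2s2, which encodes a subunit of eIF2. It had 12.11, 12.34 and 12.49 on the HCA arrays and 11.64, 11.88 and 12.05 on the arrays without HCA and rose by 0.43 ± 0.044. Among heat shock genes, the mitochondrial chaperone gene Hspa9 rose by 0.30 ± 0.0382 with no overlap and Hsph1 fell by 0.37 ± 0.0652, a call lost without the arrays of replicate 2. Markers of GABAergic neurons were mixed, with 4 positive and 4 negative changes of 8 tested and a median of 0.010. They gave 2 rises (25%) and 1 fall (12.5%), against 10.3% and 12.4% of all genes, and the fall was lost without the replicate number. Among the rises, the neuropeptide gene Sst rose by 0.36 ± 0.0469 in 8 of 8 pairs.

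Lypd10 differed more between replicates than with HCA. On the arrays of replicate 2 it had 5.04 to 5.31 with HCA and 6.42 to 6.56 without HCA, whereas on those of replicates 1 and 3 it had 8.34 to 8.77 with HCA and 9.15 to 9.70 without HCA. The fall of 1.06 ± 0.0671 was called with the replicate number as a covariate (adjusted p = 5.6e-08) and not without it (adjusted p = 0.36).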
